A study of Mus musculus with 10 samples.

Results

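The genes described are 8 epithelial genes of antimicrobial and mucosal defence, Reg3b, Reg3g, Saa1, Fut2, Pigr, Nos2, Duox2 and Duoxa2. They were taken by symbol from the deposited count table, where all 8 were found among 13932 listed genes, and all 8 were among the 12477 genes kept for testing by a filter on low counts. RNA came from live mouse cells of the ileum, the end of the small intestine, sorted for the epithelial surface protein EpCAM and for absence of CD45, which marks leukocytes. All 10 mice carried H2-Ab1 fl/fl, a version of an MHC class II beta chain gene that Cre recombinase can remove. The 5 mice called dIEC also carried Villin:Cre+, in which the villin promoter drives Cre in intestinal epithelium, and the 5 called WT were Villin:Cre-. The genotypes are those of the sample labels, since the series text gives both groups as lacking Cre. Each genotype had 3 males and 2 females, with 1 library per mouse, and mice keep the numbers of the labels (WT 2, 4, 6, 8 and 10; dIEC 1, 3, 5, 7 and 9). Because Cre was present in dIEC mice alone, effects of Cre and of the loss of H2-Ab1 cannot be told apart. No age or strain is given in the sources used here.

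Epithelial cells of the ileum face a dense community of bacteria and respond to it with secreted proteins, a modified cell surface and reactive molecules. Reg3b and Reg3g encode C-type lectins that are secreted into the lumen and bind or kill bacteria, and Saa1 encodes a serum amyloid A protein, a lipid-binding protein made in response to microbes and cytokines. Fut2 encodes the fucosyltransferase that adds terminal fucose to surface and mucus glycans, and Pigr encodes the receptor that carries dimeric IgA across the epithelium. Nos2 encodes the inducible nitric oxide synthase, Duox2 the dual oxidase that releases hydrogen peroxide at the apical membrane, and Duoxa2 the maturation factor that Duox2 needs to reach that membrane. Several of these genes are known to depend on the microbiota and on the cytokines IL-22, IL-17 and interferon gamma.

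The libraries held 9174101 to 13484363 counts, and H2-Ab1 was at 62.9 to 368 CPM (counts scaled by effective library size) in WT and at 0.767 to 3.11 CPM in dIEC. The summed level of 7 epithelial markers ran from 10610 to 17200 CPM. Of 21 leukocyte markers looked for 5 were listed, T and B cell receptor genes such as Cd3e and Cd79a not among them, and these 5 summed to 13.5 to 21.1 CPM in WT and 14.6 to 22.3 CPM in dIEC. The mean log2 CPM of 20 proliferation genes, which are active in crypts, ran from 2.81 in dIEC 7 to 5.48 in dIEC 9. In such bulk RNA fewer cells of a type and less RNA per cell cannot be told apart.

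None of the 8 genes was called between dIEC and WT. Nos2 had the largest positive log2 fold change and Duox2 and Duoxa2 the most negative, and the values of the 5 dIEC mice overlapped those of the 5 WT mice for every gene. With edgeR's quasi-likelihood test and Benjamini-Hochberg adjustment over all genes, 0 of 8 passed an adjusted p of 0.05, against 0.016% of all tested genes (2 of 12477), and 0 of 8 had an unadjusted p under 0.05 (2.85% of all genes). DESeq2 called 0 of 8, against 0.0321% of all genes, with 2 at an unadjusted p under 0.05 (4.09% of all genes). Limma voom called 0 of 8, against 0.016%, with 1 at an unadjusted p under 0.05 (2.94%). The median log2 fold change of the 8 was -0.19, against 0.013 over all genes tested. CPM of dIEC and WT did not overlap for 0.313% of all genes and for 0 of the 8.

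**Figure D1:**
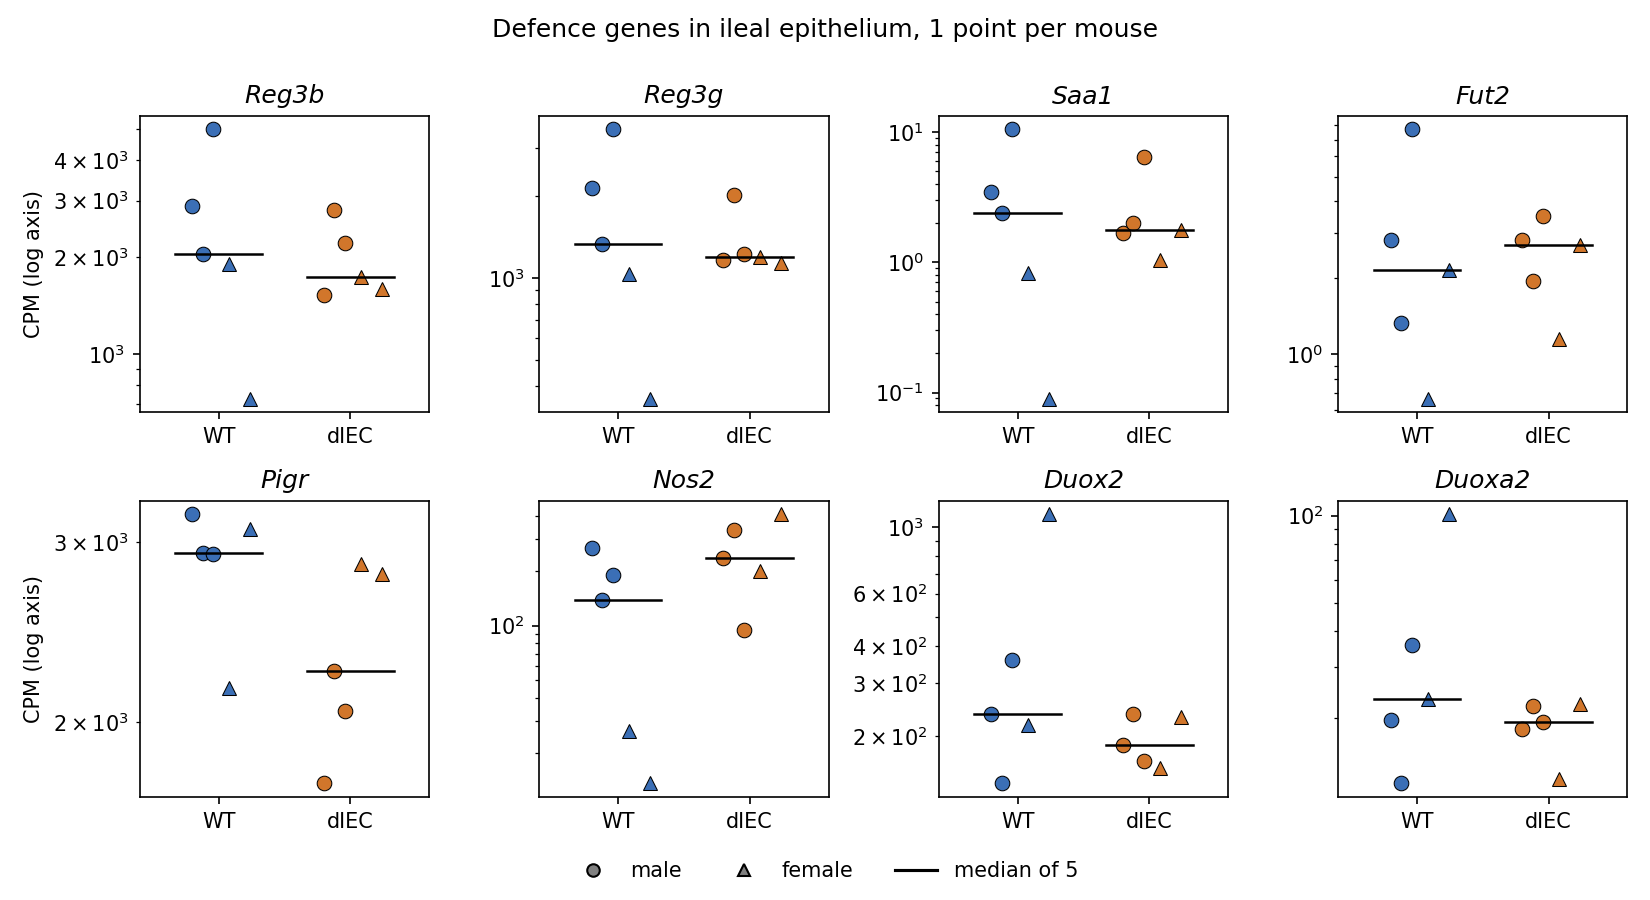
CPM on a log axis for each of the 8 genes, with 1 point per mouse, WT in blue and dIEC in orange, males as circles, females as triangles, and a line at the median of each genotype. The female WT 10 is the highest point for Duox2 (1107 CPM) and Duoxa2 (101 CPM) and the lowest for Reg3b, Reg3g, Saa1 and Nos2, and the genotypes overlap in every panel.

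Reg3b and Reg3g were among the abundant transcripts of these cells and varied mostly within WT. Reg3b (ENSMUSG00000071356; mm10 chromosome 6, 78370657 to 78373466, plus strand) was at 2882, 2051 and 4994 CPM in the WT males 2, 4 and 6 and at 1906 and 727 CPM in the WT females 8 and 10. In dIEC it was at 1529, 2803 and 2222 CPM in the males 1, 3 and 5 and at 1731 and 1597 CPM in the females 7 and 9. All dIEC values thus lay inside the WT range, whose ends were WT 10 and WT 6. The means were 2512 ± 1586 CPM in WT and 1976 ± 536 CPM in dIEC (SD, n = 5 each), with a log2 fold change of -0.23 (95% interval -1.02 to 0.56; edgeR adjusted p = 0.9999).

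Reg3g (ENSMUSG00000030017; chromosome 6, 78466269 to 78468872, minus strand), which lies 92.8 kb from Reg3b, showed the same order of extremes. It was at 2135, 1335 and 3511 CPM in WT males 2, 4 and 6 and at 1030 and 359 CPM in WT females 8 and 10. Levels in dIEC were 1159, 2023 and 1218 CPM in males 1, 3 and 5 and at 1189 and 1137 CPM in females 7 and 9, so 4 of 5 dIEC mice lay within a narrow band. Both WT females were below every other mouse. The log2 fold change was -0.11 (95% interval -1.02 to 0.80; edgeR adjusted p = 0.9999). Without WT 6 it became 0.20 for Reg3g and 0.056 for Reg3b, so the direction of neither is set by these data.

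The stretches before the RefSeq starts of these genes are shown because Reg3b and Reg3g moved together across mice. They are RefSeq sequence (GRCm38.p6), read 5′ to 3′ along each gene and limited to bases outside annotated exons. Capitals mark matches to TTCNNNGAA, the core bound by STAT factors, to the NF-kB consensus, both searched on either strand, or to TATAAA, searched on the gene's strand.
Reg3b, chr6:78370707-78370860: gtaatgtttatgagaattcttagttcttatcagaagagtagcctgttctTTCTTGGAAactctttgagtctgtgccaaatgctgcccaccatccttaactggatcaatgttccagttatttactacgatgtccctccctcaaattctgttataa
Reg3g, chr6:78468875-78469124: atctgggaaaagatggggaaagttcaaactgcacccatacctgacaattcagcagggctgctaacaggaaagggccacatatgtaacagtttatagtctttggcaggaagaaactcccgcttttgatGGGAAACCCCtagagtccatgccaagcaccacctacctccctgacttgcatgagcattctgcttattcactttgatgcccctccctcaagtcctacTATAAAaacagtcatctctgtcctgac
The Reg3b stretch held the STAT core, first base at position -129 from the RefSeq start, and the Reg3g stretch held an NF-kB match at -123 and TATAAA at -27. TATAAA was also at -29 of Reg3b, where it runs past the end of the printed stretch. The printed Reg3b stretch, from 78370707, lies inside the gene as annotated above (78370657 to 78373466), because the RefSeq start lies further along. Of 32851 RefSeq windows of 300 bases, 8.3% held the STAT core, 4.51% the NF-kB consensus and 8.32% TATAAA. A match describes the letters and is not evidence of a bound site.

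Saa1 (ENSMUSG00000074115; chromosome 7, 46740497 to 46742980, minus strand) was low and the most variable of the 8. Its counts were 42, 20 and 134 in WT males 2, 4 and 6, 10 in WT 8 and a single count in WT 10. In dIEC they were 16, 24 and 76 in males 1, 3 and 5 and 9 and 29 in females 7 and 9. The highest values of each genotype were thus in a male, WT 6 at 10.5 CPM and dIEC 5 at 6.48 CPM. In CPM the WT females were the lowest of all mice. For WT 8 (0.834 CPM) against dIEC 7 (1.03 CPM) this order came from the scaling, since dIEC 7 had fewer counts. The log2 fold change was 0.0061 (95% interval -1.05 to 1.06; edgeR adjusted p = 0.9999), and it was -0.72 in males alone and 1.59 in females alone. Saa1 has a close relative, Saa2, on the same chromosome, and reads that the 2 genes share may have been counted to either or to none.

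Of the genes that act at the cell surface, Fut2 was barely expressed and Pigr was abundant and steady. Fut2 (ENSMUSG00000055978; chromosome 7, 45648591 to 45666394, minus strand) was at 2.83, 1.32 and 7.67 CPM in WT males 2, 4 and 6 and at 0.667 and 2.15 CPM in WT females 8 and 10. Levels in dIEC were 2.82, 1.93 and 3.49 CPM in males 1, 3 and 5 and at 1.15 and 2.70 CPM in females 7 and 9. The groups overlapped over the whole dIEC range, and WT 6 was again the highest. The log2 fold change was -0.16 (95% interval -1.31 to 0.997; edgeR adjusted p = 0.9999), and 0.43 without WT 6.

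Pigr (ENSMUSG00000026417; chromosome 1, 130826684 to 130852249, plus strand) was at 3192, 2927 and 2921 CPM in WT males 2, 4 and 6 and at 2159 and 3090 CPM in WT females 8 and 10. In dIEC it was at 1742, 2241 and 2048 CPM in males 1, 3 and 5 and at 2851 and 2793 CPM in females 7 and 9. All 3 dIEC males were below all 3 WT males, with means of 2010 ± 252 and 3013 ± 155 CPM (SD, n = 3 each), whereas the females overlapped. Such a separation of males, with dIEC lower, was seen for 1 of the 8 genes and for 3.64% of all genes, and the reverse for 0 of the 8 and for 2.97%. Over all mice the means were 2858 ± 407 CPM in WT and 2335 ± 479 CPM in dIEC (SD, n = 5 each), with a log2 fold change of -0.31 (95% interval -0.75 to 0.14; edgeR adjusted p = 0.9999). Fitted in males alone the value was -0.59 and in females alone 0.11.

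Nos2 (ENSMUSG00000020826; chromosome 11, 78920787 to 78960254, plus strand) had the widest interval of the 8 on the genotype difference. It was at 268, 139 and 190 CPM in WT males 2, 4 and 6 and at 26.2 and 13.5 CPM in WT females 8 and 10. In dIEC it was at 237, 336 and 94.6 CPM in males 1, 3 and 5 and at 200 and 410 CPM in females 7 and 9. The WT females were the 2 lowest mice and the dIEC males and WT males overlapped. The means were 127 ± 108 CPM in WT and 256 ± 122 CPM in dIEC (SD, n = 5 each), with a log2 fold change of 1.55 (95% interval -0.17 to 3.27; edgeR adjusted p = 0.9999). The value was 0.15 in males alone, 3.94 in females alone, 0.92 without WT 10 and 1.02 without WT 8.

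Duox2 and Duoxa2 lie head to head on chromosome 2, with 450 bases between their annotated ends, and had nearly the same pattern. Duox2 (ENSMUSG00000068452; 122279247 to 122298449, minus strand) was at 236, 139 and 360 CPM in WT males 2, 4 and 6 and at 218 and 1107 CPM in WT females 8 and 10. Among dIEC mice it stood at 187, 236 and 164 CPM in males 1, 3 and 5 and at 157 and 232 CPM in females 7 and 9. WT 10 was 3.08 times as high as the next mouse, WT 6, and 5.08 times the median of the other 9, and the remaining WT mice overlapped dIEC. The log2 fold change was -0.90 (95% interval -1.93 to 0.14; edgeR adjusted p = 0.9999), and -0.27 without WT 10.

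Duoxa2 (ENSMUSG00000027225; 122298900 to 122302885, plus strand) was at 19.8, 11.9 and 35.7 CPM in WT males 2, 4 and 6 and at 23.3 and 101 CPM in WT females 8 and 10. Among dIEC mice it stood at 18.4, 22.0 and 19.4 CPM in males 1, 3 and 5 and at 12.3 and 22.4 CPM in females 7 and 9. WT 10 stood at 5.11 times the median of the other 9, much as for Duox2. The log2 fold change was -0.84 (95% interval -1.91 to 0.23; edgeR adjusted p = 0.9999), and -0.25 without WT 10. An exon of Duoxa2 overlaps Duoxa1 on the opposite strand, and since the use of strand in counting is not given in the sources used here, reads of the overlap are uncertain.

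A stretch between the 2 starts is shown because the genes follow each other across mice. It is RefSeq sequence (GRCm38.p6) on the strand of Duoxa2, with capitals marking TATAAA at position -30 of Duoxa2.
Duoxa2, chr2:122298741-122298899: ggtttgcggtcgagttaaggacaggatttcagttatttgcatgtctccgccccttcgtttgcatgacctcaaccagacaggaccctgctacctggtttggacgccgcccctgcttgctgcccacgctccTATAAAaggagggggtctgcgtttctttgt

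**Figure D2:**
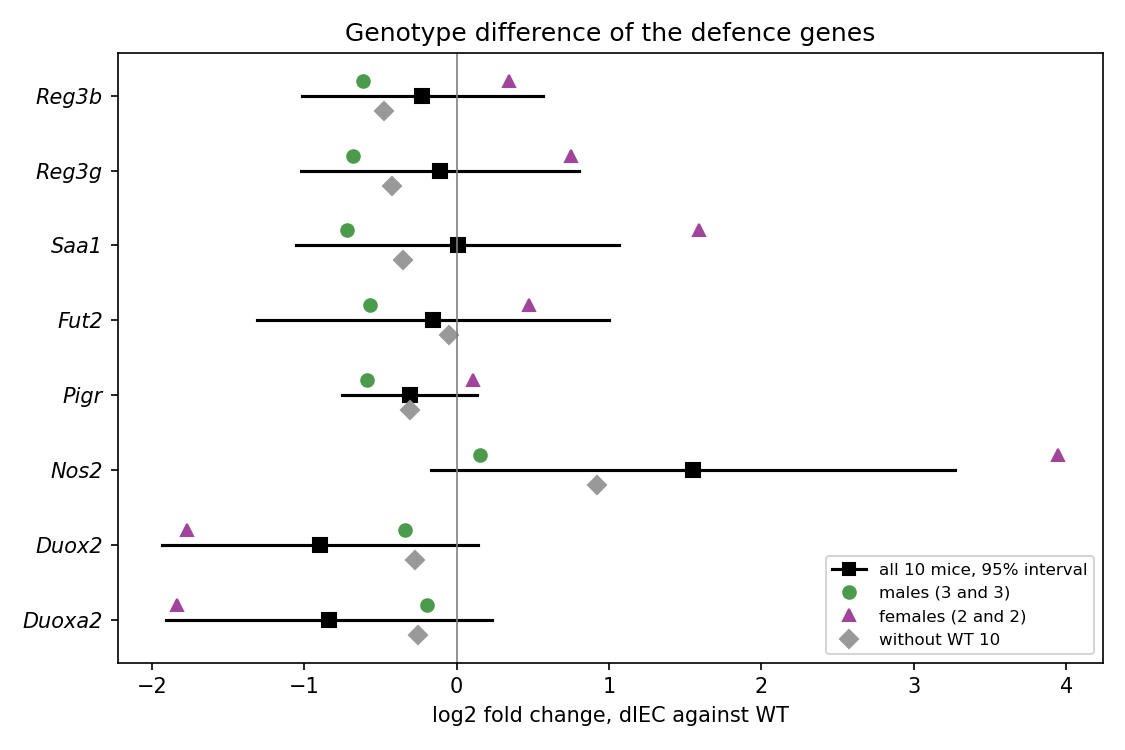
Log2 fold change of dIEC against WT for the 8 genes, with squares and bars for the fit on all 10 mice and its 95% interval, circles for males alone, triangles for females alone and diamonds for the fit without WT 10. Every bar crosses 0, and for Nos2 the values run from 0.15 in males to 3.94 in females.

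Compared per length of annotated exon, the 8 genes spanned more than 3 orders of magnitude. The lengths join the exons of all annotated transcripts (2114 bases for Reg3g, 4025 for Pigr, 2478 for Saa1). They can exceed the length of a single transcript, so the order depends on this choice. Without scaling by length the medians were 2822 CPM for Pigr, 1979 CPM for Reg3b and 1204 CPM for Reg3g. Reg3b had the highest median over the 10 mice (1733 CPM per kb), followed by Pigr (701) and Reg3g (569), and the ranges of these neighbours overlapped. Nos2 (44.2 CPM per kb), Duox2 (33.2) and Duoxa2 (13.1) came next, also with overlapping ranges. Saa1 (0.766 CPM per kb) and Fut2 (0.447) were lowest and overlapped each other. Reg3g and Nos2 did not overlap, with a lowest value of 170 and a highest of 93.0 CPM per kb, and neither did Duoxa2 and Saa1, with a lowest of 7.48 and a highest of 4.23. In WT 10, Duox2 (163.5 CPM per kb) was close to Reg3g (170).

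The spread between mice was larger in WT than in dIEC for 7 of the 8 genes. The coefficient of variation (SD over mean of CPM) was 96.3% in WT and 19.0% in dIEC for Duox2, 94.1% and 21.5% for Duoxa2, 72.2% and 28.2% for Reg3g, and 63.1% and 27.1% for Reg3b. Pigr was the exception, with 14.2% in WT and 20.5% in dIEC. Of all tested genes 49.9% varied more in WT. Without WT 10 the count was again 7 of 8 (46.1% of all genes), and the WT values were 38.4% for Duox2 and 55.3% for Reg3g. This is a description of 5 mice per genotype, with no test of the spread.

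The next comparison asked how the 8 genes differed between the sexes. None was called. edgeR called 0 of 8, against 0.0401% of all genes, DESeq2 0 of 8, against 0.104% (0.0721% lower in females), and limma voom 0 of 8, against 0.0401%. At an unadjusted p under 0.05 the numbers were 3 of 8 in edgeR (4.44% of all genes), 3 in DESeq2 (5.25%) and 4 in limma voom (4.46%). Saa1 averaged 0.934 ± 0.694 CPM (SD) over the 4 females and 4.42 ± 3.44 CPM over the 6 males, with a log2 fold change of -2.20 (95% interval -3.85 to -0.56; edgeR adjusted p = 0.9996). For Reg3g the value was -1.004 (SE 0.43) and for Reg3b -0.85 (SE 0.37), again lower in females, and without WT 10 they were -0.64 and -0.54. Fut2 (-0.97, SE 0.54) and Nos2 (-1.14, SE 0.80) had negative values too, and Pigr was near 0 (0.15, SE 0.20). Fut2 was at -0.52 without WT 6, and Nos2 at -0.44 without WT 10, -0.57 without WT 8 and -1.79 without dIEC 9. The positive values of Duox2 (0.75, SE 0.47) and Duoxa2 (0.69, SE 0.48) were -0.071 and -0.098 without WT 10. The Paneth and goblet cell marker lists were lower in females for 9 of 9 and 8 of 8 tested genes (median log2 fold changes -1.07 and -0.99). Enteroendocrine markers were lower for 8 of 8 (-0.41) and proliferation genes for 19 of 20 (-0.25), while tuft markers were higher for 6 of 6 (0.53). Over all tested genes 5185 of 12477 were lower in females. The part of these cells in the values of the Reg3 genes was not tested.

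The third comparison asked whether the genotype difference depended on sex. Here edgeR called 0 of 8 genes, against 0.00801% of all genes, with 1, Nos2, at an unadjusted p under 0.05 (2.1% of all genes). Limma voom called 0 of 8, against 0.016%, with 1 at an unadjusted p under 0.05 (2.21%). DESeq2 called 1 of 8, namely Nos2, against 0.144%, with 2 at an unadjusted p under 0.05 (2.65%). Among females, Nos2 averaged 19.9 CPM for WT and 305 CPM for dIEC (n = 2 each), against 199 ± 64.9 CPM in WT males and 222 ± 121 CPM in dIEC males (SD, n = 3 each), and DESeq2's adjusted p for the difference between the sexes was 0.00366. The interaction was 3.78 on the log2 scale in edgeR (95% interval 1.98 to 5.58), where its adjusted p was 0.999997. The tools therefore disagree on Nos2, and the value rests on 2 females per genotype. The interferon gamma response genes were also lowest in the WT females, with a mean log2 CPM of 2.42 in WT 8 and 3.29 in WT 10, against 3.50 to 4.35 in WT males and 3.67 to 5.30 in dIEC, and their part in the Nos2 values was not tested. Interactions of the other genes ran from -1.66 for Duoxa2 to 2.29 for Saa1, each with a 95% interval that spans 0. Single libraries moved most of them: without WT 10 Duoxa2 was at -0.25, Duox2 at 0.16, Reg3b at 0.40 and Reg3g at 0.84, and Saa1 was at 4.61 without WT 8, 1.39 without WT 6 and 1.47 without WT 10. Without WT 8, Reg3b was at 1.84 and Reg3g at 2.41. Fut2 ran from 0.10 without WT 6 to 2.09 without WT 10. In CPM, both WT females were below the other 8 mice for 3 of the 8 genes, Reg3g, Saa1 and Nos2, as for 2.62% of all genes, and above them for 0 of the 8 and for 6.33%. For Saa1 this rests on the scaling, with 10 counts in WT 8 and 9 in dIEC 7.

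The libraries differed in other ways that run along with these values. WT 10 had the lowest mean log2 CPM of the Paneth (3.52) and goblet (7.11) markers and a proliferation value of 3.19, close to the lowest, and it was the lowest mouse for 4 of the 8 genes (9.85% of all genes) and the highest for 2 (10.9%). dIEC 7 was near WT 10 in its Paneth (3.68) and proliferation (2.81) values, but not in its goblet value (8.36). It had 1731 CPM of Reg3b, 200 CPM of Nos2 and 157 CPM of Duox2, against 727, 13.5 and 1107 CPM in WT 10. The part of cell composition in these differences was not tested.

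Across mice, Reg3b, Reg3g and Saa1 varied together, Duox2 varied with Duoxa2, and Fut2, Pigr and Nos2 were in no pair past the threshold. Among 28 pairs of genes, and 16 relations of a gene with the proliferation or the interferon gamma score, 4 of 44 had an adjusted p under 0.05 for Pearson's r of log2 CPM over 10 mice (permutation test, 100000 resamples, Benjamini-Hochberg adjustment over the 44). All 4 were pairs of genes. Duox2 and Duoxa2 had r = 0.980 (permutation p = 3e-05, adjusted p = 0.00132) and Spearman's rho = 0.879 (permutation p = 0.00161, adjusted p = 0.0351). Without WT 10 and WT 4, the mice farthest from the median of Duox2, r was 0.899 (exact permutation p = 0.00414), and in the 6 males it was 0.936 (exact permutation p = 0.00972). The ratio of Duox2 to Duoxa2 counts stayed between 8.46 and 12.8 in all 10 mice, with 10.96 in WT 10, while the level of either gene ranged about 8-fold (7.98-fold for Duox2, 8.48-fold for Duoxa2).

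Reg3b and Reg3g had r = 0.976 (permutation p = 0.00014, adjusted p = 0.00308) and rho = 0.903 (permutation p = 0.00084, adjusted p = 0.0351). Without WT 10 and WT 6, r was 0.876 (exact permutation p = 0.00861). Their count ratio ran from 1.32 in dIEC 1 to 2.02 in WT 10. Saa1 correlated with Reg3b (r = 0.883, permutation p = 0.00228, adjusted p = 0.0334; rho = 0.830, permutation p = 0.00464, adjusted p = 0.0510) and with Reg3g (r = 0.865, permutation p = 0.0035, adjusted p = 0.0385; rho = 0.867, permutation p = 0.00239, adjusted p = 0.0351). These relations of Saa1 rest on WT 10 and WT 6, since without both r fell to 0.498 (exact permutation p = 0.210) and 0.392 (exact permutation p = 0.340).

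**Figure D3:**
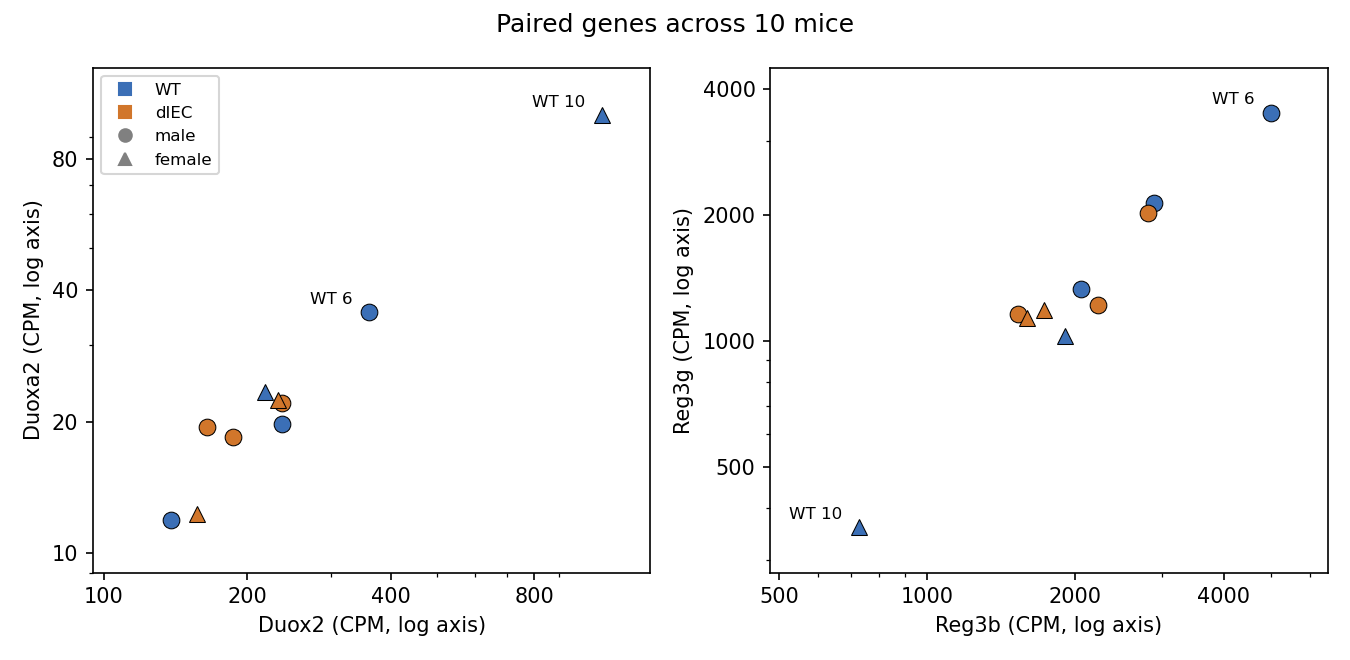
Duoxa2 against Duox2 and Reg3g against Reg3b, in CPM on log axes, with 1 point per mouse, coloured by genotype and shaped by sex. WT 10 is at the top of the Duox2 and Duoxa2 plot and at the bottom of the Reg3b and Reg3g plot, and the other mice follow the same line in each.

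Between the pairs the sign of the correlation depended on WT 10. Reg3g and Duox2 had r = -0.463 over all mice (permutation p = 0.183, adjusted p = 0.394) and 0.739 without WT 10 (exact permutation p = 0.0257, adjusted p = 0.145). Duox2 and the proliferation score had r = -0.102 over all mice (permutation p = 0.798) and 0.742 without WT 10. Without that mouse 3 of 44 relations passed, namely the Duox2 and Reg3 pairs and Saa1 with Fut2 (r = 0.873, exact permutation p = 0.00182, adjusted p = 0.0266). Nos2 had the highest r of the 8 with the interferon gamma score on log2 CPM as measured (r = 0.702, permutation p = 0.0237, adjusted p = 0.174). Its rho was 0.782 (permutation p = 0.0108, adjusted p = 0.0954). Without WT 10 and WT 8 its r was 0.407 (exact permutation p = 0.320). Without WT 10 alone it was 0.761 (exact permutation p = 0.0264, adjusted p = 0.145), and in the 6 males 0.752 (exact permutation p = 0.0931). Pigr had no correlation past the threshold with any of the other 7 genes or with either score as measured (r = 0.220 with the interferon gamma score, permutation p = 0.540). Once additive means of sex and genotype were removed, the order changed: Pigr and the interferon gamma score had r = 0.835 (permutation p = 0.0039, adjusted p = 0.0429), and Nos2 and that score 0.641 (permutation p = 0.0449, adjusted p = 0.282). A genotype difference that depends on sex stays in such residuals, and these are not relations within groups. The interaction was 0.69 for Pigr and positive for 18 of 18 interferon gamma genes (median 2.14). The permutation also made no allowance for the fitted means, so these 2 p-values are too small. In the 6 males Pigr and the score had r = -0.029 (exact permutation p = 0.964).

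**Figure D4:**
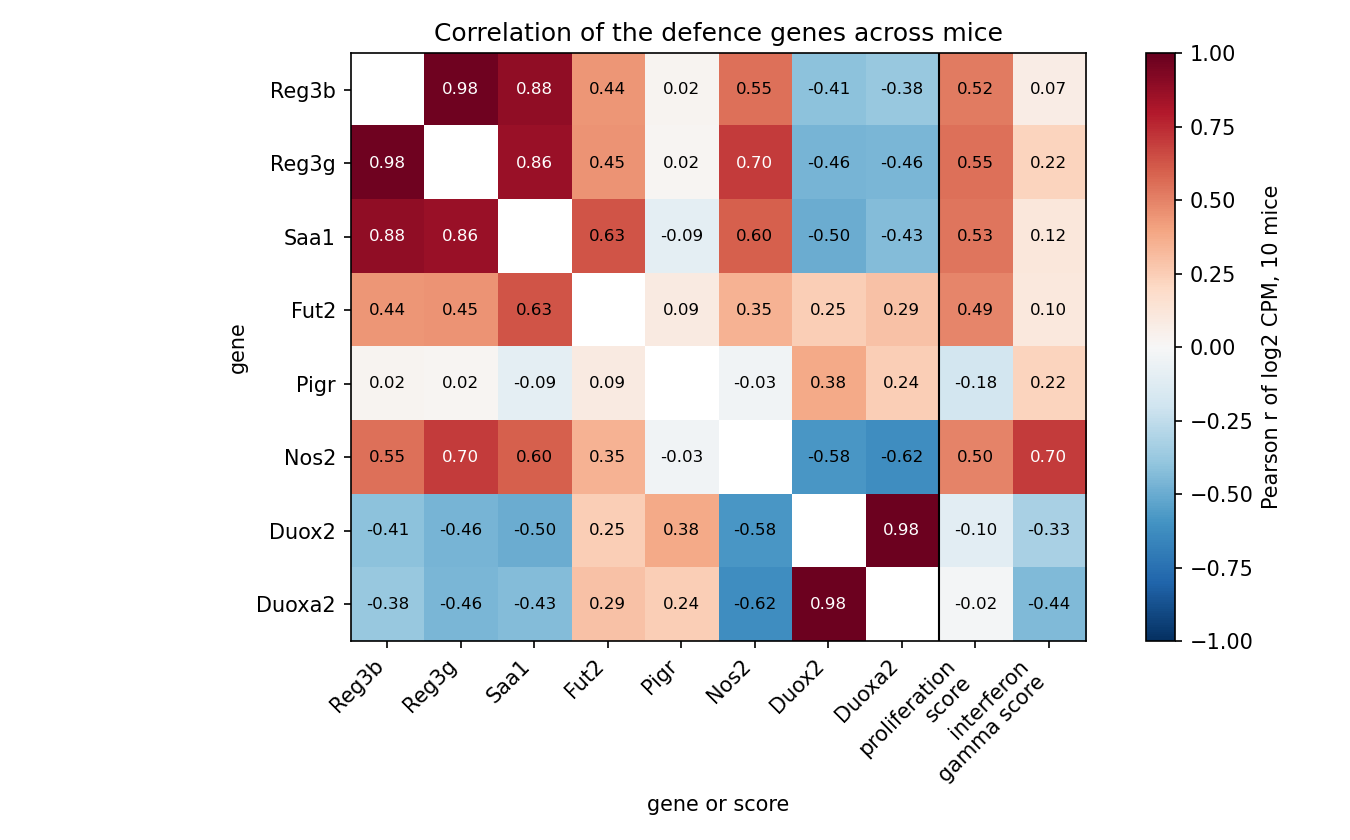
Pearson's r of log2 CPM over the 10 mice for each pair of the 8 genes and of each gene with the mean log2 CPM of the proliferation and interferon gamma lists, from blue (-1) to red (1). The dark blocks are Duox2 with Duoxa2 (0.98) and Reg3b with Reg3g and Saa1 (0.98 and 0.88). Nos2 is negative against Duox2 (-0.58) and Duoxa2 (-0.62), but without WT 10 these values were 0.19 and -0.023.

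Among 12119 other tested genes with a symbol and a mean of at least 1 CPM, the nearest to each gene by Pearson's r over the 10 mice was a member for Reg3b, Reg3g, Duox2 and Duoxa2. After Reg3g, Reg3b was closest to the galactosyltransferase gene B3galt5 (r = 0.921, or 0.841 without WT 10) and to Lama5, a laminin chain gene (0.885, or 0.747), and the same 2 genes came next for Reg3g (0.933 and 0.902). Saa1 was closest to Fry (0.948), the carboxylesterase gene Ces1c (0.937) and B3galt5 (0.920). Nos2 was closest to Casp4, an inflammatory caspase gene (0.947, or 0.889 without WT 10), then to Zfp362 (0.914) and the haemoglobin gene Hba-a1 (0.914). Fut2 was closest to the amino acid transporter gene Slc6a14 (0.877), Dnaja4 (0.875) and Zfp282 (0.857). Pigr was closest to the mitochondrial transfer RNA gene mt-Tm (0.920), Dus3l (0.919) and Tnk2 (0.893). For Duox2 the next after Duoxa2 were Ttll1 (0.843) and Zfp280c (0.840), which dropped to 0.373 and 0.0080 without WT 10. Several of these genes had means near the 1 CPM limit, such as B3galt5 (2.28 CPM), Ces1c (2.11), Hba-a1 (1.77), Slc6a14 (1.58) and Ttll1 (1.01). Others, such as Casp4 (47.55 CPM) and Zfp282 (32.35), were higher. These are the highest of many correlations over few mice and are given as a description.

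Other genes of the same pathways were likewise not called. Of 76 tested genes in 7 lists, edgeR, DESeq2 and limma voom each called 0 between dIEC and WT, and each also called 0 for sex and for the interaction. At an unadjusted p under 0.05, edgeR had 8 of 76 for genotype (10.5%, against 2.85% of all genes), 5 for sex (6.58% against 4.44%) and 6 for the interaction (7.89% against 2.1%). DESeq2 had 9 (11.8% against 4.09%), 8 (10.5% against 5.25%) and 6 (7.89% against 2.65%) in the same order, and limma voom 7 (9.21% against 2.94%), 6 (7.89% against 4.46%) and 5 (6.58% against 2.21%). Of 3 tested relatives of the Reg and SAA families, 1 was higher in dIEC and 2 lower. Reg3a, another lectin of the Reg3 cluster, averaged 251 ± 120 CPM in WT against 181 ± 34.9 CPM in dIEC (SD, n = 5 each; log2 fold change -0.44, SE 0.27), and Reg1 at 15.3 ± 10.3 and 5.61 ± 2.11 CPM (-1.47, SE 0.44; edgeR adjusted p = 0.9999).

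In a list of cytokine signalling genes, 9 of 12 tested were higher in dIEC and 3 lower (median log2 fold change 0.10). Beside receptors and transducers of IL-22 and IL-17 signals, the list held other genes such as Il18, Il18bp and Socs3. The lower genes were Il18 (-0.77), Il10rb (-0.13) and Socs3 (-0.12). Il22ra1, the IL-22 receptor chain of epithelium, averaged 165 ± 51.8 CPM in WT against 195 ± 62.4 CPM in dIEC, and Stat3, the transcription factor it activates, at 237 ± 64.5 and 264 ± 104 CPM (SD, n = 5 each). Microbial sensors and NF-kB genes were higher for 17 of 18 (median 0.25), among them the NF-kB subunit gene Relb (0.51, SE 0.21) and the inhibitor gene Nfkbia (0.26, SE 0.14). Their mean log2 CPM was lowest in WT 10 (4.31) and next lowest in the other WT female, WT 8. It was 4.59 to 4.75 in WT males and 4.66 to 4.89 in dIEC, which overlapped. The interaction with sex was positive for 16 of 18 of these genes (median 0.37), and the part of the WT females was not tested. Their summed level was 1366 CPM in dIEC 7, against 906 to 1045 CPM in the other dIEC mice and 748 to 1063 in WT. By that sum WT 10 (899 CPM) was above the male WT 6 (851 CPM). Other lists had positive values beside them, namely interferon gamma response genes for 18 of 18 (median 0.69), Paneth markers for 8 of 9 (0.37) and enteroendocrine markers for 7 of 8 (0.38), and the part of these cells and signals was not tested. Other inducible defence genes were higher for 6 of 11 (median 0.085), with the induced NF-kB cofactor Nfkbiz at 133 ± 12.2 and 141 ± 9.12 CPM (SD, n = 5 each). Over all tested genes 6564 of 12477 had a positive value.

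Genes of the fucosylation list were lower in dIEC for 10 of 12 (median -0.12). The lower ones include Fuca1 (-0.044) and Fuca2 (-0.029), whose enzymes remove fucose. B4galnt2, a glycosyltransferase of gut epithelium, was at 474 ± 32.4 and 491 ± 37.1 CPM, and Gmds, which starts the synthesis of GDP-fucose, at 130 ± 53.4 and 105 ± 30.6 CPM (SD, n = 5 each). Nitric oxide and arginine genes were lower for 7 of 10 (median -0.16), with the arginase gene Arg2 at 378 ± 145 and 238 ± 27.5 CPM (log2 fold change -0.61, SE 0.20; edgeR adjusted p = 0.9999). NADPH oxidase and peroxide handling genes were lower for 9 of 10 (median -0.20), among them the peroxiredoxin gene Prdx1 (-0.47, SE 0.21), while the catalase gene Cat was at 454 ± 110 and 441 ± 119 CPM (SD, n = 5 each).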

How the data were processed

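The authors deposited raw counts per gene for 10 libraries of sorted ileal epithelium. Libraries were strand-specific and depleted of ribosomal RNA, per the labels' protocols. Per the submitters' processing notes, Novoalign and mm10 were used. No counting program, strand setting or annotation is given in the sources used here. Every listed gene reaches 10 counts in 1 library or more. No pair of libraries of a genotype was close to identical (chi-square per degree of freedom 15.5 to 149). P-values of the group comparisons set a difference against the variation between these mice.

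Tests ran in R 4.3.3 on the deposited counts with edgeR 4.0.16 (filterByExpr, TMM factors, robust quasi-likelihood fit on sex plus genotype, or their product). DESeq2 1.42.0 and limma 3.58.1 were alternatives. The adjusted p threshold was 0.05. Log2 CPM used a prior count of 2. Standard errors were taken as the absolute log2 fold change divided by the root of F. Scripts were tested on simulated data. Coordinates and exon lengths come from GENCODE on GRCm38. Promoter windows of RefSeq matched 6 of 8 genes.

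The 8 genes and all lists were chosen with earlier results of these data known. The text names all 8, H2-Ab1, genes of each pathway list among the 4 highest by CPM, and the 3 nearest genes by correlation. Alternatives were other size factors, no filter, other tools and covariates, a threshold of 0.1, single sexes or genotypes, a prior count of 0.5, and leaving out each library.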

Additional observations from a re-analysis of the deposited data

Results flagged for a closer look

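Of 16 groups of 5 mice examined on the log2 CPM scale, 2 held a mouse far from the rest by Dixon's criterion, where chance gives about 0.8. Reg3g in dIEC 3, at 2023 CPM, was far above the other dIEC mice. Pigr in WT 8, at 2159 CPM, was far below the other WT mice. The difference of the Nos2 genotype effect between the sexes was called by DESeq2 (3.80 on the log2 scale, adjusted p = 0.00366) and not by edgeR or limma voom.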

How the results depend on the processing

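None of the 8 genes was called between genotypes under any alternative tried, but the direction of 5 of the 8 changed under at least 1, and the causes were not tested. Saa1, main value 0.0061, was negative with RLE size factors (-0.00555), limma voom (-0.069), no sex term (-0.42) and males only (-0.72), and leaving out 1 library at a time gave -0.35 to 0.71. The same leave-one-out ranges were -0.48 to 0.056 for Reg3b, -0.42 to 0.20 for Reg3g and -0.48 to 0.43 for Fut2. Limma voom turned Reg3g to 0.090 and Fut2 to 0.015. Females alone turned Reg3b to 0.34, Reg3g to 0.75, Fut2 to 0.48 and Pigr to 0.11. Nos2, Duox2 and Duoxa2 kept their sign in all 18 alternatives. For the sex difference, Pigr was -0.20 in WT alone, and in dIEC alone Nos2 was 0.43, Duox2 -0.036 and Duoxa2 -0.22. Leaving out 1 library gave -0.071 to 1.02 for Duox2 and -0.098 to 1.02 for Duoxa2, and -2.13 to 0.16 for the Duox2 interaction, the low end of the first 2 and the high end of the last without WT 10. Of all genes, DESeq2 called 4 between genotypes and females alone gave 0 (edgeR 2), DESeq2 called 13 between sexes (edgeR 5), and for the interaction library size scaling gave 0, DESeq2 18 and limma voom 2 (edgeR 1), with 0 to 1 when a library was left out. Relations past the threshold, 4 in all, numbered 2 to 5 when a library was left out, with 2 without WT 2, WT 4 or WT 6. In males only the number was 0. With 6 mice the smallest possible permutation p is too large for a lone relation to pass after adjustment over 44. That 0 therefore does not show a loss of the relations. In the males r was 0.936 for Duox2 with Duoxa2 and 0.9605 for Reg3b with Reg3g. No paired analysis was run, because the labels do not state whether mice of the 2 genotypes were paired. Depth limits Saa1 and Fut2, with 1 to 134 and 8 to 98 counts per library.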
